A study of Mus musculus with 44 samples.

Results

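The genes described here are 10 genes of T lymphocytes: Cd3d, Cd3e and Cd3g, Cd4, Cd8a and Cd8b1, Cd28, Lck, Foxp3 and Il2rb. They were chosen by name and found through their Ensembl identifiers among the 43411 genes measured in mouse back skin, and all 10 passed the filter of a mean normalized count above 3 that 17037 genes passed. RNA of wild type C57Bl/6 female mice, 8 weeks old at the start, was sequenced from whole skin biopsies. Of the 44 mice, 10 were injected with saline, 10 received bleomycin for 2 weeks (bleo 2 wk) and 10 for 4 weeks (bleo 4 wk). In the recovery groups, bleomycin was stopped after 4 weeks, and the skin was taken 6 weeks later from 6 mice (recv 6 wk) and 10 weeks later from 8 mice (recv 10 wk). Bleomycin, a DNA-damaging drug used to induce dermal fibrosis, was injected daily under the back skin, and the labels give 100 µL of 1 U/mL, while a figure legend of the study gives a lower concentration, so the dose is uncertain. The labels give one saline group with no week of harvest. Age and time since the first injection therefore cannot be told apart from treatment in any comparison with saline. The bleomycin and recovery groups also differ from each other in age and time.

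T cells recognise antigen through a receptor whose variable chains signal through the CD3 proteins, encoded by Cd3d, Cd3e and Cd3g. The co-receptors Cd4 and the Cd8a/Cd8b1 pair mark helper and cytotoxic T cells and bring the kinase Lck to the receptor, and Cd28 gives the second signal that full activation needs. Foxp3 is the transcription factor that defines regulatory T cells, which restrain inflammation. Il2rb encodes a receptor chain for the growth cytokines IL-2 and IL-15 and is also high on natural killer (NK) cells. Mouse skin normally holds many resident T cells, among them gamma delta T cells of the epidermis that carry CD3 but little CD4 or CD8.

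On GRCm38, the CD3 genes lie together on chromosome 9, with Cd3g (44969572-44980431, minus strand) and Cd3d (44981786-44987339, plus strand) transcribed away from each other from starts separated by 1354 bases, and Cd3e (44998740-45009627, minus strand) beside them. Cd8b1 (71322788-71337494) and Cd8a (71373427-71379173) are neighbours on the plus strand of chromosome 6, which also holds Cd4 (124864692-124888221, minus strand). Cd28 is on chromosome 1 (60716800-60773359, plus strand), Lck on chromosome 4 (129548344-129573641, minus strand), Il2rb on chromosome 15 (78479256-78495271, minus strand) and Foxp3 on chromosome X (7573644-7595245, plus strand). Foxp3 overlaps Ppp1r3f and Ccdc22 on the other strand and Flicr on its own strand, and Cd3e overlaps the antisense gene Gm48719. The libraries were strand-specific, but the strand setting of the counting is not given in the sources used here, so reads in these overlaps are uncertain. The RefSeq table of promoters (GRCm38.p6) held entries for 6 of the 10 genes (Cd3d, Cd3e, Cd3g, Cd8a, Lck and Foxp3). The 250 bases before the transcription start are shown for 4 of them, chosen for the patterns described below. The 4 are a CD3 gene called higher at 2 weeks (Cd3d), another that was not called (Cd3e), and the co-receptor that rose and fell back (Cd8a). The last is Foxp3, whose median was highest at 4 weeks of bleomycin. Capitals mark, on either strand, the letters AGGAAG of the ETS motif and TGGAAA of the NFAT motif.
Cd3d, chr9:44981536-44981785, plus strand: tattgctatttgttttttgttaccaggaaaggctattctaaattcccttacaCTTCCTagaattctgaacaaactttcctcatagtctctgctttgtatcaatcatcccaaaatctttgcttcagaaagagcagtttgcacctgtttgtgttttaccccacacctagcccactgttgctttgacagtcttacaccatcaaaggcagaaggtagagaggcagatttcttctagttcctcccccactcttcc
Cd3e, chr9:45009612-45009861, minus strand: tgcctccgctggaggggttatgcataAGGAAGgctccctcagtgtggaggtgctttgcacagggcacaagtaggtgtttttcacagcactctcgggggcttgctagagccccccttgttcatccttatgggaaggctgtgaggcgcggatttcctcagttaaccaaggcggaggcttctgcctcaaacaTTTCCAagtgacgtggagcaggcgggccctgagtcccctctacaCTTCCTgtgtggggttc
Cd8a, chr6:71373177-71373426, plus strand: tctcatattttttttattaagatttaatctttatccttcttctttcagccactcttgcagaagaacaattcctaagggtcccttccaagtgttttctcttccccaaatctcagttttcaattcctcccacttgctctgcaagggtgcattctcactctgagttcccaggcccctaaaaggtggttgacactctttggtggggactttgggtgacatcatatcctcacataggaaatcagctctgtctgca
Foxp3, chrX:7580233-7580482, plus strand: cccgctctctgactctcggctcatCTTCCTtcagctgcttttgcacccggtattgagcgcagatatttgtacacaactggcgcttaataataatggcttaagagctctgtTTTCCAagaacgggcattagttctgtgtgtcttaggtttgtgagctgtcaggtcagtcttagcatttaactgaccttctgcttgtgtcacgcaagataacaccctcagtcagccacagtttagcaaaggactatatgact
The Cd3e window held 2 ETS matches and 1 NFAT match, those of Cd3d and Foxp3 held 1 ETS match each, with an NFAT match in that of Foxp3, and none of the motif letters was in the Cd8a window. The RUNX letters TGTGGT were in none of these 4 windows. Over all 32851 promoter windows of this length, 29.5% held the ETS letters, 18.6% the NFAT letters and 14.0% the RUNX letters, and no match in the printed windows overlapped another motif. The Foxp3 window is that of the downstream of its 2 RefSeq starts and lies in an exon of the non-coding gene Flicr. The window of its other start (chrX:7579426-7579675), which is not printed, held no ETS, NFAT or RUNX letters. A match of letters is a description of the sequence and not a binding site.

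The libraries held 8509094 to 15285577 reads on genes (median 11310008). All 10 genes had reads in every mouse, from a single read (Cd8b1 in a recv 10 wk mouse) to 397 (Il2rb in a bleo 2 wk mouse). Saline mouse 1 and bleo 2 wk mouse 2 stood farthest from their own groups, with median correlations to them over genes of 0.942 and 0.938, against 0.947 to 0.985 in the other mice. They are not a separate class, since recv 10 wk mouse 4 (0.947) and saline mouse 6 (0.949), which was the highest saline mouse for 6 of the 10 genes, came close. Their T cell genes stood apart as well: saline mouse 1 was the lowest saline mouse for 6 of the 10 genes, and bleo 2 wk mouse 2 was among the 2 highest of its group for 8. The count of genes called at 2 weeks is therefore also given without both mice. In whole skin, fewer T cells and less RNA per T cell cannot be told apart.

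In saline skin, Cd3g was the most abundant of the 10 genes per length, with 50.9 ± 17.2 (SD, n = 10) normalized counts per kb of exon. Lck (31.5 ± 11.5), Cd3d (27.7 ± 10.7), Il2rb (25.7 ± 8.54), Cd3e (24.5 ± 7.86) and Cd4 (21.4 ± 6.12) followed, and neighbours in this order differed by less than the larger of their SDs. A clear step separated these from Cd8b1 (7.78 ± 6.81), Cd8a (6.22 ± 4.77), Foxp3 (5.99 ± 2.15) and Cd28 (4.65 ± 1.99), which could not be ordered among themselves. Per length, Foxp3 moved from 5.99 ± 2.15 in saline to 19.5 ± 10.1 in bleo 4 wk skin, where it stood above Cd8b1 (6.28 ± 2.93) by more than the larger SD.

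**Figure D1:**
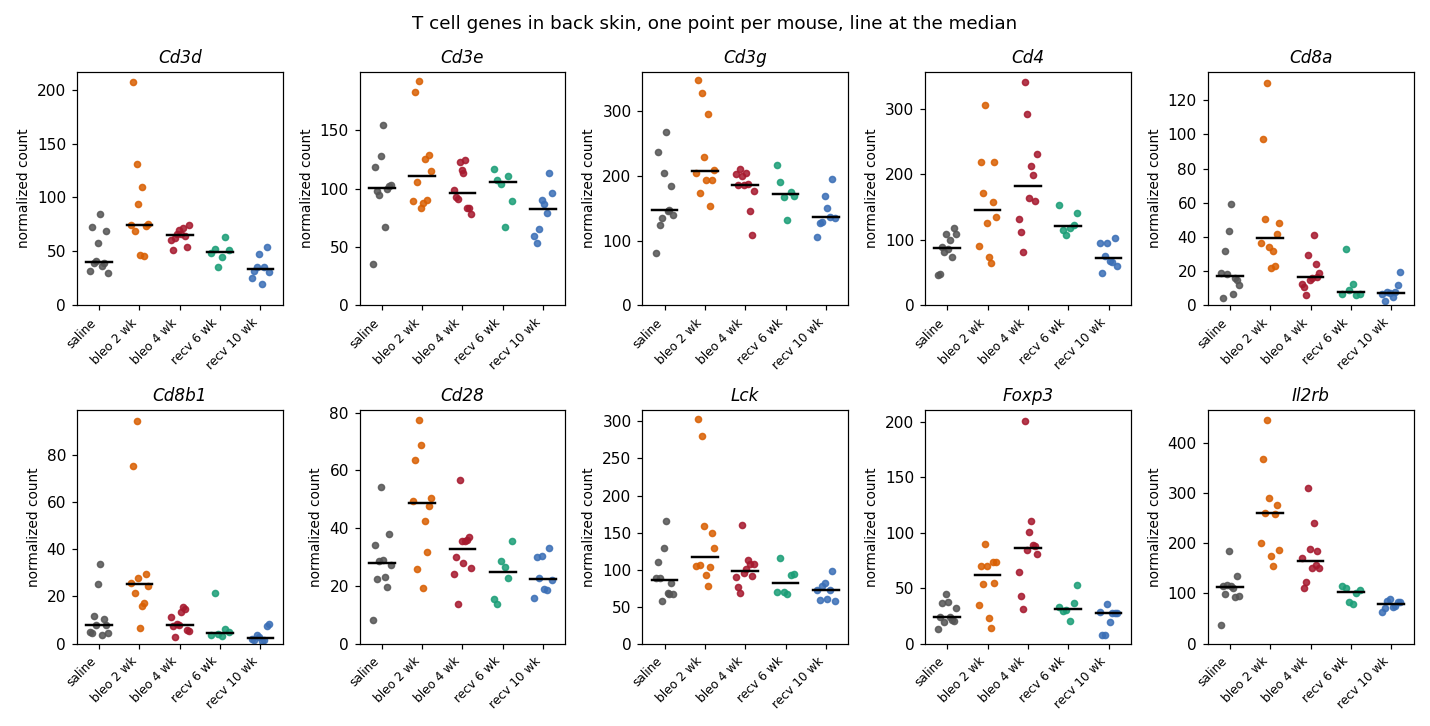
Normalized counts (y axis, linear) of the 10 T cell genes in each mouse, by group (x axis), with a line at the group median. Foxp3 and Cd4 had their highest medians (86.5 and 182) in bleo 4 wk skin, and all the other genes had theirs in bleo 2 wk skin. For Cd3e the medians lay between 82.6 and 110.5 in all groups.

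The first comparison asked which T cell genes differed after 2 weeks of bleomycin. In bleo 2 wk skin, 8 of the 10 genes were higher than in saline skin by more than 1.5-fold at an adjusted p below 0.05 (limma, Benjamini-Hochberg over all genes tested), and none was lower. Over all genes tested, 16.7% were called in this comparison, 9.30% as higher. The median log2 fold change of the 10 genes was 0.79, against 0.00 over all genes. The genes that rose were Il2rb, the Cd8 pair, Foxp3, Cd3d, Cd4, Cd28 and Lck.

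Among the receptor genes, Cd3d, the CD3 delta chain, ranged from 30.0 to 84.9 normalized counts (median 40.1) in saline and from 45.8 to 207 (median 74.7) in bleo 2 wk skin. Its log2 fold change was 0.82 ± 0.20 (SE, limma adjusted p = 0.00125), and all 10 bleomycin mice lay above the saline median although the groups overlapped. Cd3g, the gamma chain, ranged from 81.1 to 268 (median 146) in saline and from 153 to 347 (median 207) in bleo 2 wk skin. Its log2 fold change of 0.50 ± 0.16 passed the adjusted p (limma, 0.0103) but not the fold change of 1.5. Cd3e, the epsilon chain, ranged from 35.8 to 154 (median 101) in saline and from 83.2 to 192 (median 110.5) in bleo 2 wk skin. At a log2 difference of 0.29 ± 0.18 (limma adjusted p = 0.215), Cd3e did not pass the test, and 6 of 10 mice lay above the saline median.

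The co-receptor genes of cytotoxic T cells, Cd8a and Cd8b1, both rose at 2 weeks. Cd8a ranged from 4.57 to 59.4 (median 17.1) in saline and from 22.1 to 130.2 (median 39.3) in bleo 2 wk skin, where all 10 mice were above the saline median but only 2 were above every saline mouse. It rose by 1.27 ± 0.37 on the log2 scale (limma adjusted p = 0.00581). Cd8b1, the beta chain of conventional cytotoxic T cells, ranged from 3.86 to 33.9 (median 8.00) in saline and from 6.72 to 94.3 (median 25.2) in bleo 2 wk skin, a log2 fold change of 1.46 ± 0.39 (limma adjusted p = 0.00253). These values rest on 3 to 84 reads per mouse. For Cd4, the saline range of 46.5 to 119 (median 88.1) became 64.2 to 306 (median 146), and 7 of 10 bleomycin mice exceeded every saline mouse. The log2 fold change of Cd4 was 0.76 ± 0.23 (limma adjusted p = 0.00827).

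Of the signalling genes, Lck ranged from 57.0 to 165 (median 85.3) in saline and from 78.0 to 303 (median 118) in bleo 2 wk skin, and rose by 0.63 ± 0.19 on the log2 scale (limma adjusted p = 0.00919). Cd28 ranged from 8.35 to 54.3 (median 27.9) in saline and from 19.2 to 77.4 (median 48.6) in bleo 2 wk skin, a log2 fold change of 0.74 ± 0.25 (limma adjusted p = 0.0156). Both groups overlapped for both genes, and both calls lie near the fold change threshold. The call of Lck was lost when saline mouse 4 (log2 0.56), bleo 2 wk mouse 2 (0.50) or bleo 2 wk mouse 4 (0.52) was left out, and that of Cd28 without saline mouse 1 (0.57).

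Il2rb had the smallest adjusted p of the 10 genes. It ranged from 38.2 to 185 (median 112) in saline and from 155 to 445 (median 260.2) in bleo 2 wk skin, with 8 of 10 bleomycin mice above every saline mouse and a log2 fold change of 1.26 ± 0.19 (limma adjusted p = 5.25e-07). Foxp3 ranged from 13.1 to 44.6 (median 24.2) in saline and from 13.8 to 89.8 (median 62.2) in bleo 2 wk skin. It rose by 0.90 ± 0.30 on the log2 scale (limma adjusted p = 0.0168), and 7 of 10 bleomycin mice exceeded every saline mouse while the other 3 lay within the saline range. Without saline mouse 1 and bleo 2 wk mouse 2, 5 genes were called (Cd3d, Cd4, Cd8a, Cd8b1 and Il2rb), and Foxp3 (log2 0.74, adjusted p = 0.0613), Cd28 (0.51) and Lck (0.50) were not.

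**Figure D2:**
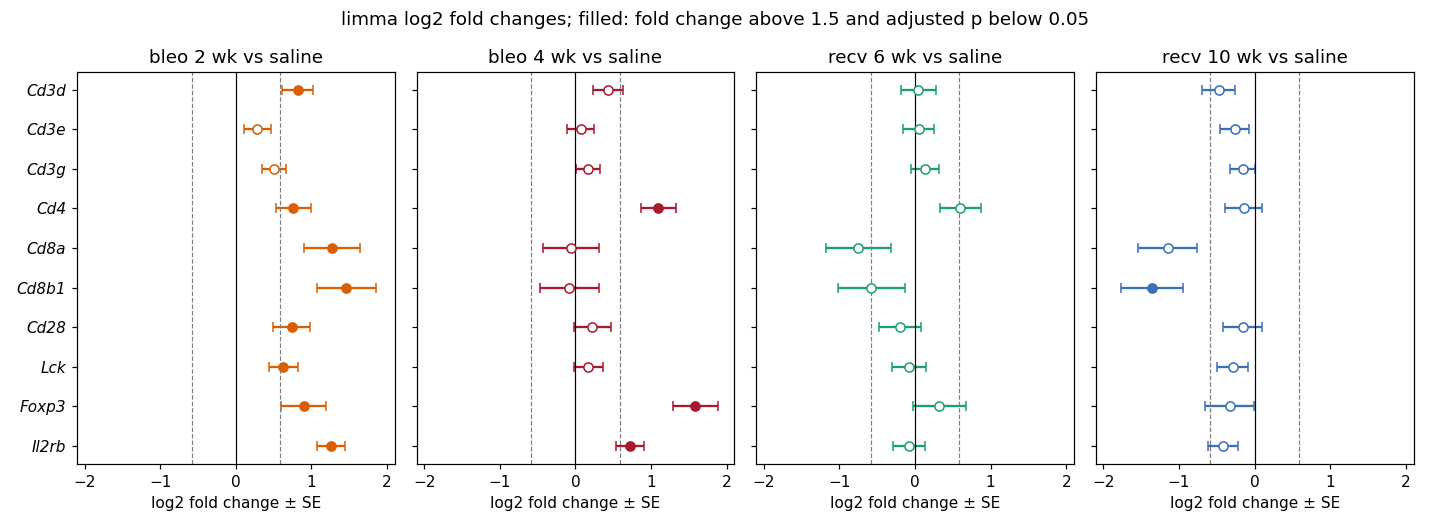
log2 fold changes against saline (x axis, limma, bars are ± 1 SE) of the 10 T cell genes in the 4 other groups, with dashed lines at a fold change of 1.5 and filled points for genes called. At 2 weeks 8 points are filled, at 4 weeks those of Cd4, Foxp3 and Il2rb, at recv 6 wk none, and at recv 10 wk that of Cd8b1, on the lower side.

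The second comparison set skin after 4 weeks of bleomycin against saline. Here 3 of the 10 genes, Foxp3, Cd4 and Il2rb, were called higher and none lower. Over all genes tested, 17.9% were called in this comparison, 10.5% as higher, and the median log2 fold change of the 10 genes was 0.20. Foxp3 ranged from 31.3 to 201 (median 86.5) in bleo 4 wk skin, with all 10 mice above the saline median and 8 above every saline mouse, and it rose by 1.59 ± 0.30 on the log2 scale (limma adjusted p = 4.02e-05). Cd4 ranged from 82.1 to 342 (median 182), with 8 of 10 mice above every saline mouse and a log2 fold change of 1.10 ± 0.23 (limma adjusted p = 1.76e-04). Il2rb ranged from 111 to 309.5 (median 164) and rose by 0.72 ± 0.19 (limma adjusted p = 0.00182), with 3 of 10 mice above every saline mouse. Without saline mouse 1, the change in Il2rb was 0.56 and under the fold change threshold.

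The other genes were near their saline levels at 4 weeks. Cd8a ranged from 5.87 to 40.9 (median 16.3) and Cd8b1 from 2.93 to 15.7 (median 8.05), with log2 differences from saline of -0.06 ± 0.37 and -0.08 ± 0.39. The CD3 genes gave log2 differences of 0.43 ± 0.20 (Cd3d, limma adjusted p = 0.0942), 0.07 ± 0.18 (Cd3e) and 0.17 ± 0.16 (Cd3g). Cd3d nevertheless lay above the saline median in all 10 mice, within the narrow range of 51.3 to 74.3. Cd28 and Lck had differences of 0.22 ± 0.25 and 0.17 ± 0.19.

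Of the genes that overlap Foxp3, Ccdc22 differed from saline by a log2 value of 0.11 ± 0.10 at 2 weeks and -0.01 ± 0.10 at 4 weeks, and Ppp1r3f by 0.16 ± 0.21 and 0.47 ± 0.21 (limma adjusted p = 0.0698 at 4 weeks). Neither was called. Il2ra encodes a chain of the IL-2 receptor that regulatory T cells carry, though not they alone. It ranged from 21.5 to 57.9 normalized counts in saline and from 61.9 to 148 in bleo 4 wk skin, so that the groups did not overlap. Its log2 fold change was 1.16 ± 0.18 at 2 weeks (limma adjusted p = 9.95e-07) and 1.5 ± 0.18 at 4 weeks (limma adjusted p = 4.42e-09). Ikzf2, a factor found in many regulatory T cells, differed by -0.19 ± 0.17 at 4 weeks (limma adjusted p = 0.392). Over the 13 helper and regulatory genes tested, which include Il2ra and Ikzf2, the median log2 fold change at 4 weeks was -0.11.

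The direct comparison of both bleomycin groups tested whether the effects differed with time. From 2 to 4 weeks, 2 of the 10 genes fell, against 2.35% of all genes called in this comparison and 0.863% called as lower. Cd8a fell by 1.33 ± 0.37 on the log2 scale (limma adjusted p = 0.0254) and 7 of 10 bleo 4 wk mice lay below every bleo 2 wk mouse. Cd8b1 fell by 1.54 ± 0.39 (limma adjusted p = 0.0131), with 3 of 10 mice below every bleo 2 wk mouse. The call of Cd8a was lost without bleo 2 wk mouse 2 (adjusted p = 0.0529), bleo 2 wk mouse 4 (0.0599) or bleo 4 wk mouse 3 (0.0541), while that of Cd8b1 was not lost when any single mouse was left out. Foxp3 (0.69 ± 0.30, limma adjusted p = 0.173) and Cd4 (0.34 ± 0.23, limma adjusted p = 0.428) had higher means at 4 weeks without passing the test, so a rise of these genes from 2 to 4 weeks was not shown. Il2rb gave -0.54 ± 0.19 (limma adjusted p = 0.0777) and was called without bleo 2 wk mouse 7 (-0.61) or bleo 4 wk mouse 4 (-0.63).

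At 6 weeks of recovery, 0 of the 10 genes were called against saline by limma, edgeR or DESeq2, and 1 gene, Cd4, had an unadjusted limma p below 0.05. Over all genes tested, 5.04% were called in this comparison. Cd4 ranged from 108 to 153 (median 121), with all 6 mice above the saline median and 4 above every saline mouse, at a log2 difference of 0.60 ± 0.27 (limma adjusted p = 0.149). Foxp3 ranged from 20.6 to 52.9 (median 31.7) and Il2rb from 78.1 to 115 (median 103). The medians of Cd8a and Cd8b1 were 7.81 and 4.38, and 5 of 6 mice were under the saline median for each, at log2 differences of -0.75 ± 0.43 (limma adjusted p = 0.276) and -0.58 ± 0.45 (0.448).

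Set against bleo 4 wk skin, 2 of the 10 genes fell by 6 weeks of recovery, where 11.9% of all genes were called, 7.14% as lower. Foxp3 fell by 1.26 ± 0.35 on the log2 scale (limma adjusted p = 0.00567) and Il2rb by 0.80 ± 0.21 (limma adjusted p = 0.00453), with all 6 recovery mice below the bleo 4 wk median for each. These 2 calls were kept whichever single mouse of both groups was left out. Cd4 differed by -0.50 ± 0.27 (limma adjusted p = 0.174), Cd3d by -0.38 ± 0.23 (0.240) and Cd3e by -0.02 ± 0.21 (0.959).

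At 10 weeks of recovery, 1 of the 10 genes was called against saline, and it was lower, where 3.05% of all genes were called, 0.998% as lower. Cd8b1 ranged from 0.939 to 8.28 (median 2.26), or 1 to 9 reads per mouse, with 6 of 8 mice below every saline mouse and a log2 fold change of -1.35 ± 0.41 (limma adjusted p = 0.0400). Cd8a ranged from 2.43 to 19.3 (median 7.48), 7 of 8 mice were below the saline median, and its log2 difference was -1.15 ± 0.39 (limma adjusted p = 0.0719). The call is fragile. Cd8b1 lost it in 11 of the 18 fits that left out 1 mouse, among them those without saline mouse 3, 4, 5, 6 or 8 and recv 10 wk mouse 1, 2, 3, 4, 5 or 6 (adjusted p up to 0.0929), and Cd8a gained it without saline mouse 2 or 7 or recv 10 wk mouse 8. With edgeR on recovered reads, Cd8a was called (-1.41, adjusted p = 0.0492) and Cd8b1 was not (-1.66, adjusted p = 0.0513), and DESeq2 called both.

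Foxp3 (range 7.84 to 35.6, median 27.5), Cd4 (50.2 to 103, median 71.7), Il2rb (62.2 to 89.1, median 78.9) and Cd3e (53.5 to 113, median 82.6) did not pass the test against saline at 10 weeks of recovery, with log2 differences of -0.33, -0.15, -0.42 and -0.27. From 6 to 10 weeks of recovery, limma, edgeR and DESeq2 called 0 of the 10 genes, where 0.0880% of all genes were called, and 2 genes, Cd3d and Cd4, had an unadjusted limma p below 0.05. Cd4 was lower in all 8 recv 10 wk mice than in any of the 6 recv 6 wk mice, at a log2 difference of -0.75 ± 0.28 (limma adjusted p = 0.307).

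Ratios between the genes were taken within each mouse on log2(normalized count + 1), so that the added 1 draws ratios of low genes such as Cd8a and Cd8b1 towards 0, and were compared with saline by two-sided permutation tests, adjusted over 20 comparisons. The log2 ratio of Foxp3 to Cd3e ranged from -2.25 to -1.38 in saline and from -1.51 to 0.70 in bleo 4 wk skin, and 9 of 10 bleo 4 wk mice lay above every saline mouse. The difference was 1.52 (permutation p = 6.00e-05, adjusted p = 0.00110). In bleo 2 wk skin the ratio ranged from -3.09 to -0.25 and differed by 0.61 (permutation p = 0.0501, adjusted p = 0.125). At recv 6 wk and recv 10 wk the differences were 0.27 and -0.07 (exact permutation, adjusted p = 0.406 and 0.823).

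Il2rb rose against Cd3e at both times. The log2 ratio was 0.14 ± 0.34 (SD, n = 10) in saline and 1.10 ± 0.41 in bleo 2 wk skin, with 8 of 10 mice above every saline mouse (difference 0.97, permutation p = 1.10e-04, adjusted p = 0.00110). In bleo 4 wk skin it was 0.79 ± 0.34 (difference 0.65, permutation adjusted p = 0.00520), and in recovery it was 0.01 ± 0.21 and -0.02 ± 0.30. The balance of the co-receptors differed from saline at 4 weeks. The log2 ratio of Cd4 to Cd8a was 2.16 ± 1.03 in saline and 1.65 ± 0.55 in bleo 2 wk skin (difference -0.51, permutation adjusted p = 0.406). In bleo 4 wk skin it was 3.32 ± 0.47 (difference 1.16, permutation adjusted p = 0.0219). All 10 bleo 4 wk mice exceeded the saline mean, but only 1 exceeded every saline mouse. The ranges overlapped, from 0.53 to 3.75 in saline and from 2.35 to 4.20 in bleo 4 wk skin. The ratio was 3.51 ± 0.97 at recv 6 wk (difference 1.35, exact permutation adjusted p = 0.0939) and 3.17 ± 0.73 at recv 10 wk (difference 1.00, exact permutation adjusted p = 0.115). For Cd8b1 to Cd8a, the differences from saline were between -0.20 and 0.19, and for Cd28 to Cd3e between -0.25 and 0.45. None of these 8 comparisons passed, with permutation adjusted p from 0.116 (Cd28 to Cd3e, bleo 2 wk) to 0.929.

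**Figure D3:**
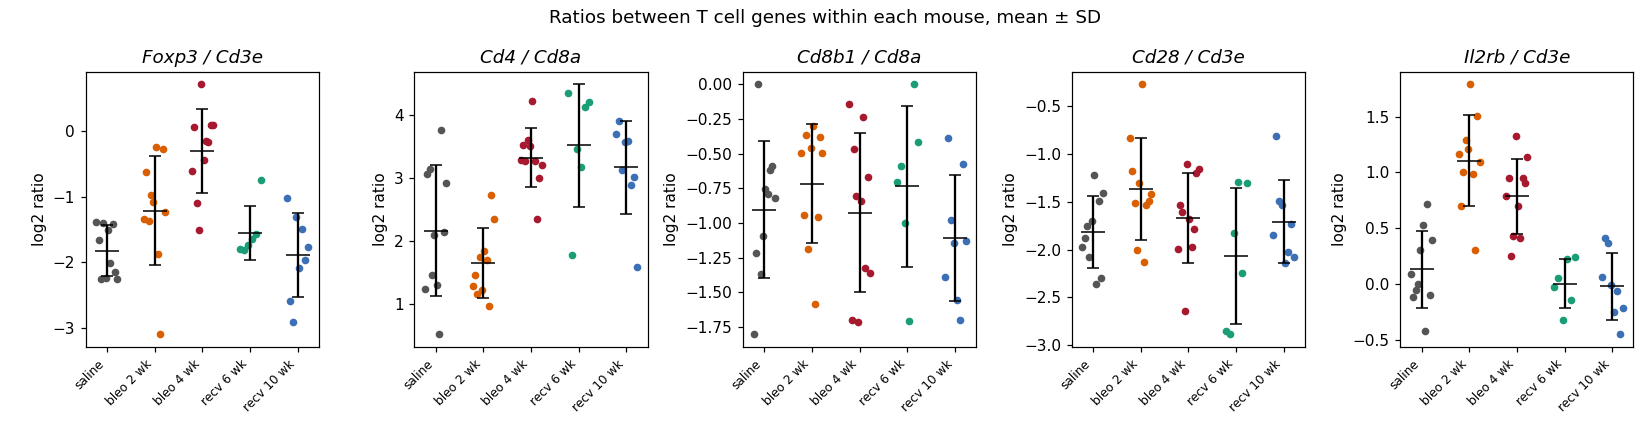
log2 ratios (y axis) between T cell genes in each mouse by group (x axis), with the mean ± SD. The ratio of Foxp3 to Cd3e reached -0.31 ± 0.64 in bleo 4 wk skin from -1.82 ± 0.39 in saline, that of Il2rb to Cd3e was higher in both bleomycin groups, and that of Cd8b1 to Cd8a lay between group means of -1.11 and -0.72.

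Mice of one group differed from each other along the T cell genes together. In bleo 2 wk skin, mouse 4 was among the 2 highest for all 10 genes, and mouse 6 among the 2 lowest for 9. After group means were taken off, the 45 pairs of the 10 genes had Pearson correlations over 44 mice from 0.16 (Cd3g and Cd4) to 0.83 (Cd8a and Cd8b1), with a median of 0.50. Cd3g followed Cd3e (0.80) and Cd3d (0.76), and Cd4 followed Foxp3 (0.73). These are descriptions, and the values of a mouse share its library and its biopsy.

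**Figure D4:**
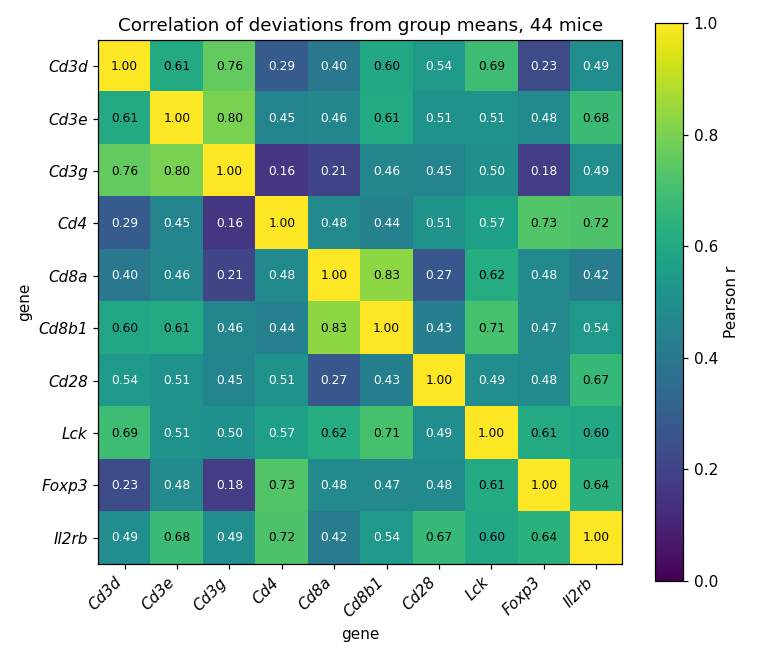
Pearson correlations over 44 mice between the log2 values of the T cell genes after group means were taken off, on a colour scale from 0 to 1. The highest values are those of Cd8a with Cd8b1 (0.83), Cd3e with Cd3g (0.80), Cd3d with Cd3g (0.76) and Cd4 with Foxp3 (0.73), and the lowest is that of Cd3g with Cd4 (0.16).

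The mean log2 level of the CD3 genes was related to 9 other measures within groups, tested by permutation within groups and adjusted over these 9. It correlated with Lck (Pearson r = 0.64, adjusted p = 3.60e-04, Spearman rho = 0.60, adjusted p = 4.20e-04, permutation), Il2rb (r = 0.61 and rho = 0.57) and Cd28 (r = 0.56 and rho = 0.44), and leaving out saline mouse 1 and bleo 2 wk mouse 2, which lay farthest from the median, gave r of 0.65, 0.46 and 0.43. The relations with Cd4 (r = 0.34, rho = 0.31) and Foxp3 (r = 0.33, rho = 0.34) were lower and rested on those mice (r = 0.21 and 0.24 without them). For Cd8a, r was 0.40 (adjusted p = 0.0220) and rho 0.30 (adjusted p = 0.0661, permutation). Of the cell lists, the mean level of 9 NK cell genes followed the CD3 genes with r = 0.72 and rho = 0.63 (adjusted p = 9.00e-05 and 4.20e-04, permutation; r = 0.65 without those mice). The mean of all 10 listed B cell genes, of which only 6 passed the filter, gave r = 0.34 and rho = 0.38. The 12 macrophage and monocyte genes gave r = 0.47 and rho = 0.34, a relation that rested on the same 2 mice (r = 0.23 without them).

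**Figure D5:**
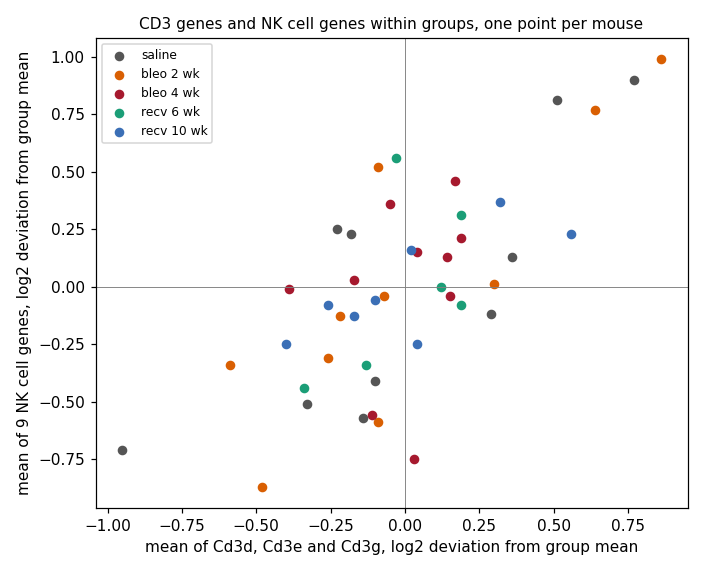
Mean log2 level of the NK cell genes (y axis) against that of the CD3 genes (x axis), both as deviations from the group mean, one point per mouse and one colour per group. Points rise together over the 44 mice (r = 0.72), and r was 0.65 once saline mouse 1 and bleo 2 wk mouse 2 were left out.

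Among the 17037 genes tested, leaving out the T cell genes above, those whose deviations followed the CD3 mean most closely were B2m (r = 0.87), H2-K1 (0.84) and H2-Q7 (0.84), genes of antigen presentation by class I molecules, then Itm2b, Tmsb4x, S100a4, Cxcl16, the receptor constant chain Trbc1 (0.81), Nkg7 and Klrd1 (0.80). H2-K1 and H2-Q7 have close paralogs, so the share of reads given to each is uncertain. Of the T cell genes outside CD3, Lck ranked 192 by this measure, Cd8b1 245, Il2rb 293, Cd28 532, Cd8a 1775, Cd4 2650 and Foxp3 2823.

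Other T cell genes were counted against the same background, in which 9.30% of all genes were called higher at 2 weeks and 10.5% at 4 weeks (16.7% and 17.9% in either direction). Of 17 genes of receptor signalling, 8 were called higher at 2 weeks and 5 at 4 weeks and none lower, with median log2 fold changes of 0.60 and 0.36. At 4 weeks the largest were Lcp2 (1.09), an adaptor, Sh2d1a (1.08) and Cd6 (1.01). Of 10 tested genes of costimulation and checkpoints, 5 were higher at 2 weeks, and at 4 weeks 6 were higher and 1 lower, led by the inhibitory receptors Tigit (1.89), Pdcd1 (1.49) and Ctla4 (1.19). Of the genes of naive and recirculating cells, the homing receptor Ccr7 rose by 1.97 at 4 weeks, and Lef1, which hair follicles also use, fell by 1.64. Of 13 helper and regulatory genes tested, 2 rose at 2 weeks, and at 4 weeks Il2ra rose and Cxcr6 fell by 0.86. The median log2 fold changes of these 13 were 0.07 at 2 weeks and -0.11 at 4 weeks. By the adjusted p alone, 1 of them was higher and 3 lower at 4 weeks, where 6242 of all 17037 genes passed it, 3138 as higher. The 2 of 13 helper genes and 1 of 7 constant chains called at 2 weeks are near the 9.30% of all genes called higher. The lists were not tested as sets.

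Of 7 tested constant chains of the T cell receptor, with median log2 differences of 0.41 at 2 weeks and 0.05 at 4 weeks, Trbc1 was called at 2 weeks (0.78, limma adjusted p = 6.58e-04) and at 4 weeks it differed by 0.40 (adjusted p = 0.0795). Trac, of alpha beta T cells, had medians of 36.0 in saline, 57.2 in bleo 2 wk and 56.8 in bleo 4 wk skin and did not pass (0.63 ± 0.27 at 2 weeks, limma adjusted p = 0.0718). Trdc, of gamma delta T cells, had medians of 154, 153 and 156 (log2 differences -0.01 ± 0.16 and -0.06 ± 0.16). Reads of Trbc1 and Trbc2, and of the Tcrg-C genes, can be shared between near-identical copies. Only 5 of the 10 listed genes of resident gamma delta cells were tested. Their median log2 differences were -0.05 at 2 weeks and 0.07 at 4 weeks. Of these, 2 were called lower at 2 weeks and 1 at 4 weeks, against 1266 and 1256 of all 17037 genes. None was called higher. By the adjusted p alone, 1 was higher and 2 lower at 4 weeks, where 6242 of all 17037 genes passed it, 3138 as higher. Blk, a Src family kinase that B cells also use, fell by 1.57 at 4 weeks.

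Genes that other cells share with T cells moved in the same comparisons. There, 9.30% of all genes were called higher at 2 weeks and 10.5% at 4 weeks, and 1266 and 1256 of 17037 lower. Of 9 NK cell genes, 8 were higher at 2 weeks and 6 at 4 weeks (1 lower), with median log2 fold changes of 2.21 and 1.38, and their summed level ranged from 104 to 330.0 in saline, 328 to 981 in bleo 2 wk and 221 to 418 in bleo 4 wk skin. Ncr1, one of these NK cell genes, had a median of 6.57 in saline, 32.4 in bleo 2 wk and 22.3 in bleo 4 wk skin. It was called lower at recv 10 wk (-1.27 ± 0.30, limma adjusted p = 0.00720). Of 7 cytotoxic genes tested, 5 rose and 1 fell at 2 weeks, and 4 rose and 1 fell at 4 weeks, with Gzmb (2.41), Gzma (1.68) and Gzmc (-2.12) the largest at 4 weeks. At recv 10 wk, 2 of the NK genes and 2 of the cytotoxic genes were called lower than in saline, against 0.998% of all genes. The NK list shares Eomes with the cytotoxic list. The part of NK cells in the changes of Il2rb was not tested.

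Over all genes tested, 9.30% were called higher at 2 weeks and 10.5% at 4 weeks. Called lower were 1266 and 1256 of the 17037 genes. Of 12 macrophage and monocyte genes, 10 were higher at both 2 and 4 weeks. Their summed level ranged from 12226 to 29234 in saline, 29528 to 76695 in bleo 2 wk and 27160.2 to 53151 in bleo 4 wk skin. All 6 pan-leukocyte genes were higher at 2 weeks and 5 at 4 weeks, and of 6 tested B cell genes 4 and 3 were higher and 1 and 2 lower. Of 10 dendritic cell genes, 3 fell at 2 weeks, while 4 fell and 1 rose at 4 weeks. Of 6 keratinocyte genes, 2 passed the adjusted p at each time, without the fold change of 1.5. This is near the share over all genes, of which 6063 and 6242 of 17037 passed the adjusted p alone. All 6 tested hair follicle genes were lower at both times, with median log2 differences of -8.69 and -7.50, and 3 of 5 fat cell genes were lower at both. Of 6 fibroblast genes, 3 were lower at 2 weeks and 1 at 4 weeks, and 1 of 6 skeletal muscle genes was lower at 4 weeks. The part of these shifts in tissue make-up in the T cell gene changes was not tested.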

How the data were processed

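Skin RNA of 44 mice in 5 groups, taken from the labels, was analysed. Per the labels, the authors used STAR 2.4.0 for alignment to mm10 and DESeq2 1.12.3, and the deposited signal is a normalized count, the reads of a gene divided by the size factor of the mouse. The counting tool and annotation are not given in the sources used here. Whole reads were recovered by dividing the values of each mouse by its smallest value above 0. In every mouse, 100.0% of the resulting values, rounded, came within 0.01 of a whole number. In 1 mouse this smallest value lay too near 1 to show the unit by itself. Identifiers were paired with symbols for 42929 of 43411 genes, and 0 columns were left without a sample.

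limma 3.58.1 (mean-variance trend, R 4.3.3) was fitted on log2(normalized count + 1) over all mice and all 17037 genes with a mean above 3, so fold changes of low genes are understated. A gene was called with a fold change above 1.5 (log2 0.585) and a Benjamini-Hochberg adjusted p below 0.05. Permutation tests of ratios were two-sided, with every arrangement enumerated (exact) for groups under 10 mice and 100000 resamples for the rest. Relations used deviations from group means and permutations within groups. All comparisons with saline share the saline mice. Within groups, the closest pair of mice differed by 5.32 times the counting variance, so no library was counted as a repeat. The labels do not name litters or days, and p-values measure the spread between mice. Intervals from counting were not used; with 3 reads as the floor, Cd8b1 is near the limit of detection in recovery.

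Alternatives tried were no filter, a pseudocount of 0.1, 10 normalized counts in 6 mice, trimmed-mean rescaling, fits of 2 groups, the replicate number as a block, no fold change threshold, leaving out each mouse, 42 mice, and edgeR 4.0.16 and DESeq2 1.42.0 on recovered reads. The fits and permutation tests were tested on simulated data. All 10 T cell genes were named, with the 3 largest called genes at 4 weeks of each further list of T cell genes and the 10 genes most like the CD3 mean; Trac, Trdc, Ikzf2, Ncr1 and the genes overlapping Foxp3 were named outside this rule, after their values were seen. A result on the list of naive and recirculating cells is not reported here. The members and lists were chosen with earlier results of these data known. Scripts ran in Python 3.11.15 (scipy 1.17.1, matplotlib 3.10.9, numpy 2.4.6, pandas 2.3.3).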

Additional observations from a re-analysis of the deposited data

Results flagged for a closer look

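Over 50 group-by-gene checks, 5 values stood far from the rest of their group (Dixon's test at 95%, in which chance flags about 1 in 20 groups). Cd3d was 207 normalized counts in bleo 2 wk mouse 2, where the next mouse had 131. Cd8a and Cd8b1 were 32.9 and 21.6 in recv 6 wk mouse 2, where the next mice had 12.3 and 6.15. Lck and Foxp3 were 160.2 and 201 in bleo 4 wk mouse 4, where the next mice had 113 and 110.2.

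In 4 cases the effect against saline differed between groups by the limma test of the difference itself. The effect at 4 weeks of bleomycin minus that at 2 weeks was -1.33 for Cd8a and -1.54 for Cd8b1 (log2). The effect at recv 6 wk minus that at 4 weeks of bleomycin was -1.26 for Foxp3 and -0.80 for Il2rb.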

How the results depend on the processing

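The counts of T cell genes called were within 1.5 times of the main count under most alternatives. Without saline mouse 1 and bleo 2 wk mouse 2, the count at 2 weeks was 5 of 10 against 8, and the relations of the CD3 genes with Cd4 (r = 0.20), Foxp3 (0.23) and the macrophage list (0.19) no longer passed, nor did the rank correlations with Cd28 (permutation adjusted p = 0.0501) and the B cell list (0.114). At recv 10 wk the count of 1 was 0 with no filter and with only both groups in the fit, and 2 with DESeq2; from recv 6 wk to 10 wk it was 1 with only both groups in the fit, against 0. The cause was not tested. Leaving out each mouse in turn gave 7 to 9 genes at 2 weeks, 2 to 3 at 4 weeks, 0 to 0 at recv 6 wk, 0 to 2 at recv 10 wk, 1 to 3 from 2 to 4 weeks, 2 to 2 from bleo 4 wk to recv 6 wk, and 0 to 0 from recv 6 wk to 10 wk. Uncalled differences near 0 changed sign: Cd3d at recv 6 wk was -0.01 with edgeR, -0.02 with DESeq2 and -0.01 with 42 mice, Cd3e at recv 6 wk was -0.00, -0.01 and -0.10, and Cd3e at 4 weeks was -0.08 with 42 mice. Of 360 fold changes recomputed, 343 kept direction and side of the thresholds, 7 changed sign, 8 were no longer called and 2 became called. No call on a ratio changed with a pseudocount of 0.1 or with 42 mice. With the replicate block the counts were 8, 3, 0, 1, 2, 2 and 0 in the order above, as without it; the mice share only a number, since same-numbered mice correlated with a median of -0.002 over 78 pairs and 6 of 44 mice correlated best with their own number. Depth limits Cd8a and Cd8b1 most, with 1 to 116 reads per mouse.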
